A study of Zea mays with 12 samples.

Results

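The calcium sensors of maize and the protein kinases that read them were followed in imbibing seeds with and without a functional *ZmEREB92* gene. Members were all genes of the deposited table whose description or name holds one of the terms calmodulin, calcium-dependent protein kinase, CBL-interacting, calcineurin B, CIPK or calcium-binding protein CML. This gave 241 of 55529 genes: 51 CBL-interacting protein kinases (CIPKs), 14 calcineurin B-like proteins (CBLs), 44 calcium-dependent protein kinases (CDPKs) and 47 calmodulins and calmodulin-like proteins (CMLs). The other 85 genes matched only because their products bind calmodulin or depend on it, and they are given apart. RNA-seq had been performed on whole seeds in 4 groups of 3 libraries each. *ereb92*_6h and *ereb92*_0h were seeds of *ereb92-6*, a CRISPR/Cas9 knockout line in the KN5585 background, at 6 and 0 hours after imbibition (HAI). KN5585_6h and KN5585_0h were seeds of KN5585, the transformable wild type, at the same times. All seeds were surface-sterilised, and imbibition was on wet filter paper in the dark. A single mutant line was sequenced, so effects of that line and of the gene cannot be told apart. Whole seeds mix embryo, endosperm and aleurone, and fewer cells of a type and less RNA per cell cannot be told apart in such libraries.

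As background, a rise of free calcium in the cytosol is a common early signal in plant cells, set off by water uptake, cold, touch, wounding and hormones. Proteins with EF hands, loops that hold a calcium ion, turn this rise into a change of activity. Calmodulins and CMLs have no enzyme activity and act by binding other proteins. CBLs likewise only bind, and their partners are the CIPKs, a plant family also called SnRK3, which a CBL brings to a membrane and releases from autoinhibition. CDPKs carry the kinase and the EF hands in one chain. Known targets of these kinases include the potassium channel AKT1, the sodium/proton exchanger SOS1 and the NADPH oxidases of the plasma membrane.

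Between 12771663 and 15383586 reads were counted on genes per library. A library with 0 counts for a gene allows up to 3 counts, which equalled 0.182 to 0.285 CPM (counts per 1000000, on library sizes scaled by edgeR's TMM factors), and this limit covers counting error only. KN5585_6h replicate 1 stood apart with 23104 genes detected, against 27689 to 32080 in the other libraries. The labels do not say whether replicates came from separate seed lots, so p-values measure the spread between these libraries. *ZmEREB92* (Zm00001d000339) had 288.5, 195 and 62.4 CPM in the libraries labelled *ereb92*_6h, against 13.3, 4.59 and 33.0 CPM in KN5585_6h. The deposited table places this gene on an unplaced contig of B73 RefGen_v4, and the study states that the gene was not assembled on its chromosome in that build. A knockout by a small edit need not lower the transcript either, so this level does not check the labels. The summed FPKM of 20 zein genes, which mark endosperm, was 10.6 to 86.7 in *ereb92*_6h, 19.4 to 89.4 in KN5585_6h, 54.1 to 108 in *ereb92*_0h and 144 to 646 in KN5585_0h. That of 7 oleosin genes, which mark oil-storing embryo and aleurone cells, was 26305 to 55926, 25613 to 99173, 46469 to 108198 and 66437 to 123544 in the same order of groups. The part of tissue makeup in the results below was not tested.

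The summed level of CIPK transcripts was highest in *ereb92*_6h, and CDPK transcripts followed the same pattern, whereas CBL transcripts did not. Per gene length, the 51 CIPKs together had 1704, 1275 and 1014 FPKM in *ereb92*_6h, against 610, 567 and 747 FPKM in KN5585_6h. At 0 HAI the sums were 542 to 705 FPKM in *ereb92*_0h and 522 to 674 FPKM in KN5585_0h. The 44 CDPKs summed to 251, 234 and 163 FPKM in *ereb92*_6h, against 99.8, 109 and 127 FPKM in KN5585_6h. All 3 *ereb92*_6h libraries were above all 9 others in both sums. The 14 CBLs summed to 71.2, 67.4 and 65.7 FPKM in *ereb92*_6h, against 97.5, 78.6 and 88.3 FPKM in KN5585_6h. The calmodulin-like sums overlapped between the groups, with 1207 to 1856 FPKM in *ereb92*_6h and 967 to 1469 FPKM in KN5585_6h. These sums are descriptions without a test and were not scaled by the TMM factors. The pair of CIPKs with the highest mean level made up 19.1% to 52.1% of the CIPK sum.

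**Figure D1:**
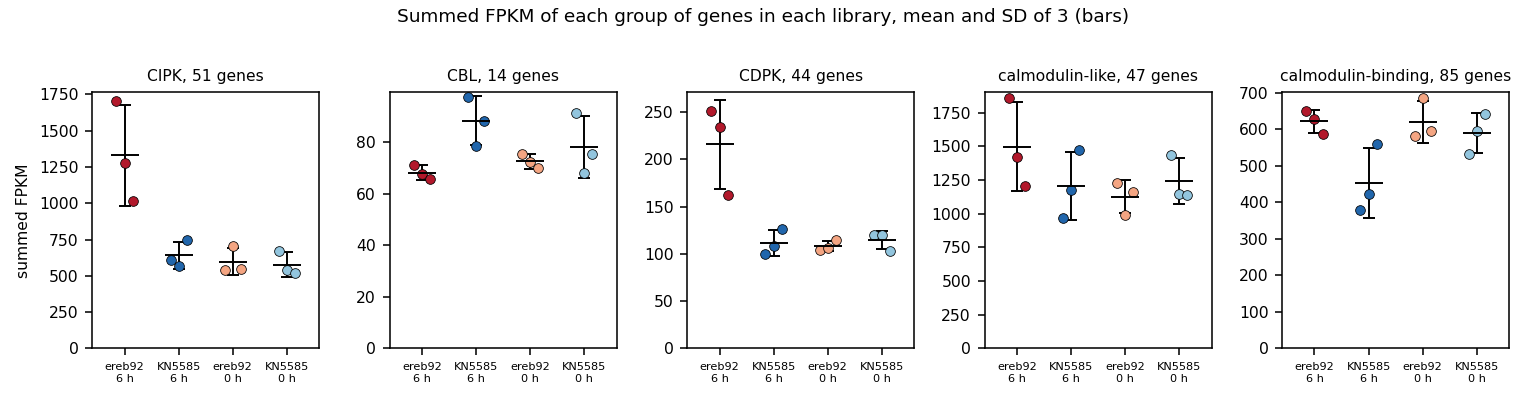
Summed FPKM (y axis, linear from 0) of the 51 CIPK, 14 CBL, 44 CDPK, 47 calmodulin-like and 85 calmodulin-binding genes in each of 12 libraries (points), with the mean and SD of 3 libraries (bars) in *ereb92*_6h, KN5585_6h, *ereb92*_0h and KN5585_0h. The CIPK sum was 1014 to 1704 in *ereb92*_6h and 522 to 747 in the other 9 libraries, while the CBL sum was 65.7 to 71.2 in *ereb92*_6h and 78.6 to 97.5 in KN5585_6h.

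Most of the members were weakly transcribed. A mean of at least 10 FPKM over all libraries was reached by 13 CIPKs, 3 CBLs, 4 CDPKs and 22 calmodulin-like genes, and 26 of the 241 members had 0 counts in every library. The most abundant single members were the EF-hand protein gene described as CML50 (Zm00001d052458), with a mean of 288 FPKM, and a calmodulin gene (Zm00001d010650), with 215 FPKM. Among kinases, the CIPK gene Zm00001d022450 (154 FPKM) and *ZmCIPK4* (141 FPKM) stood far above every CDPK, of which the highest, Zm00001d034562, had 13.2 FPKM. The filter on low counts kept 31 CIPKs, 11 CBLs, 28 CDPKs, 34 calmodulin-like and 56 calmodulin-binding genes in at least 1 comparison, so that the counts below are over these and not over all members.

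Imbibition of the mutant gave most of the calls. Of 153 members tested for *ereb92*_6h vs *ereb92*_0h, 26 rose and 0 fell at a Benjamini-Hochberg adjusted p below 0.05 over all genes and a fold change of 2 or more by edgeR's quasi-likelihood test. This is 17.0% of the members, beside 5.87% of the 23575 genes tested (0.106% down-regulated). By group, 7 of 30 CIPKs, 0 of 11 CBLs, 7 of 26 CDPKs, 8 of 32 calmodulin-like and 4 of 54 calmodulin-binding genes were up-regulated. The median log2 fold change was 0.88 for CIPKs, 0.46 for CDPKs, 0.43 for calmodulin-like, 0.16 for calmodulin-binding genes and -0.26 for CBLs, against -0.021 for all genes tested. The 26 genes rose by 1.06 to 5.38 on the log2 scale, with a median of 2.69. For each of them the 3 *ereb92*_6h libraries were above the 3 *ereb92*_0h libraries. The genes were selected on these same libraries, so this separation adds no support to the calls. The share of all genes without overlap was not counted. At an unadjusted p below 0.05 with the same fold limit, 44 members passed upwards (28.8%, against 11.0% of all genes) and 0 downwards (0.878% of all genes). The count depended on single libraries: it was 14, 16 and 13 without *ereb92*_0h replicate 1, 2 and 3, and 14 without *ereb92*_6h replicate 1, where 3.35%, 3.57%, 2.97% and 3.32% of all genes were up-regulated. By DESeq2's Wald test 41 of 172 members rose (against 7.68% of all genes) and 1 fell (against 0.355%), a CDPK gene (Zm00001d034376) named after its values were seen. That gene had 0 CPM in each *ereb92*_6h library, against 0.304, 1.76 and 0.259 CPM in *ereb92*_0h, so replicate 2 carried most of its level. It was too low for the edgeR filter.

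**Figure D2:**
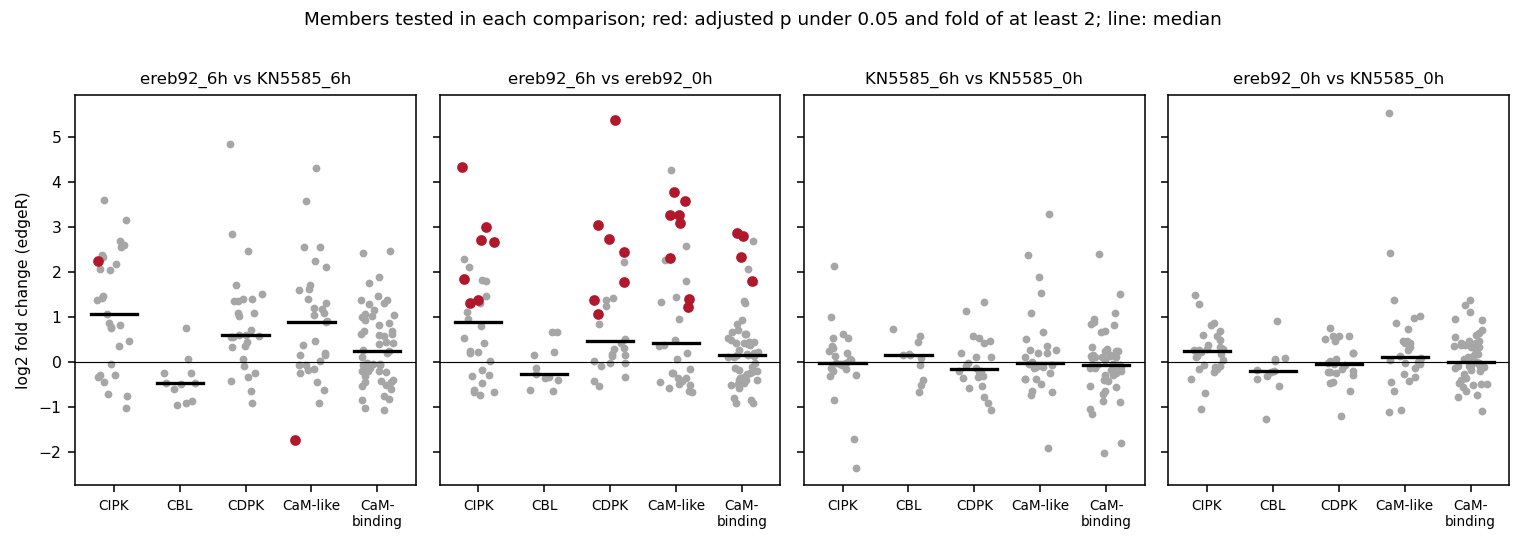
Log2 fold change by edgeR (y axis) of each member tested (points), by group of genes (x axis) in 4 comparisons, with red points for members that passed the adjusted p and the fold limit and black lines for medians. For *ereb92*_6h vs *ereb92*_0h 26 members passed, all above 0 and none of them CBLs, and 0 passed for KN5585_6h vs KN5585_0h or *ereb92*_0h vs KN5585_0h.

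*ZmCIPK29* (Zm00001d022451) showed the highest CIPK increase. It had 56.2, 60.2 and 45.4 CPM in *ereb92*_6h, against 1.46, 3.05 and 3.63 CPM in *ereb92*_0h, and these ranges were far apart. The log2 fold change was 4.32 (SE 0.364, edgeR adjusted p = 0.000708). In KN5585 the same gene had 1.30, 4.91 and 17.8 CPM at 6 HAI, against 3.04, 1.65 and 0.785 CPM at 0 HAI, so that its wild-type libraries overlapped. *ZmCIPK4* (Zm00001d033316), the most abundant of the CIPKs that the study names, had 669, 455 and 401 CPM in *ereb92*_6h, against 56.7, 99.2 and 78.3 CPM in *ereb92*_0h. It was up-regulated by 2.71 on the log2 scale (SE 0.315, edgeR adjusted p = 0.00204). KN5585 seeds had 29.9, 74.4 and 171 CPM of *ZmCIPK4* at 6 HAI, against 89.0, 41.5 and 49.5 CPM at 0 HAI. Both genes stayed past the limits in each of the 6 fits that left out 1 library.

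*ZmCIPK12* (Zm00001d038690) had 69.2, 24.5 and 22.9 CPM in *ereb92*_6h, against 5.72, 7.03 and 2.01 CPM in *ereb92*_0h. Its log2 fold change was 2.998 (SE 0.590, edgeR adjusted p = 0.0211). *ZmCIPK6* (Zm00001d032155) had 161, 53.1 and 61.4 CPM, against 16.4, 15.7 and 11.6 CPM. It rose by 2.67 (SE 0.445, edgeR adjusted p = 0.0104). In both genes *ereb92*_6h replicate 1 was well above its 2 partners, and all 3 remained above the 0 HAI libraries. *ZmCIPK33* (Zm00001d052416) had 30.7, 13.2 and 28.5 CPM, against 5.47, 6.11 and 8.56 CPM, and rose by 1.85 (SE 0.377, edgeR adjusted p = 0.0239). Its end overlaps a calmodulin-like gene on the other strand (Zm00001d052415), and reads in the overlap cannot be told apart unless strand was counted. *ZmCIPK23* (Zm00001d018799), whose Arabidopsis namesake activates AKT1 in potassium uptake, had 181, 169 and 113 CPM, against 43.7, 60.3 and 76.2 CPM. This was an increase of 1.37 on the log2 scale (SE 0.281, edgeR adjusted p = 0.0248). *ZmCIPK26* (Zm00001d015325) had 61.9, 46.8 and 30.5 CPM, against 19.2, 21.9 and 15.1 CPM, an increase of 1.32 (SE 0.298, edgeR adjusted p = 0.0377). The calls of *ZmCIPK33* and *ZmCIPK26* held in 1 of the 6 fits without a library, that of *ZmCIPK23* in 2, that of *ZmCIPK12* in 3 and that of *ZmCIPK6* in 5. The edgeR adjusted p of these 5 genes ranged up to 0.0683 for *ZmCIPK12*, 0.0552 for *ZmCIPK6*, 0.103 for *ZmCIPK33* and *ZmCIPK23* and 0.146 for *ZmCIPK26* in those fits.

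In the mutant, 6 HAI and 0 HAI libraries that share a replicate number shifted in the same direction across genes. The main fits took no account of that number. A block for it brought 3 more named CIPKs past the threshold for *ereb92*_6h vs *ereb92*_0h. These were *ZmCIPK15* (Zm00001d052340; edgeR adjusted p = 0.0592 without and 0.0211 with the block), *ZmCIPK20* (Zm00001d020496; 0.0504 and 0.0291) and the abundant CIPK gene Zm00001d022450 (0.110 and 0.0456). *ZmCIPK20* had 53.4, 25.1 and 16.7 CPM in *ereb92*_6h, against 9.12, 11.4 and 6.74 CPM in *ereb92*_0h. Zm00001d022450 had 505, 321 and 229 CPM in *ereb92*_6h, against 168, 202 and 123 CPM in *ereb92*_0h, with no overlap but a log2 fold change of only 1.11 (SE 0.334).

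**Figure D3:**
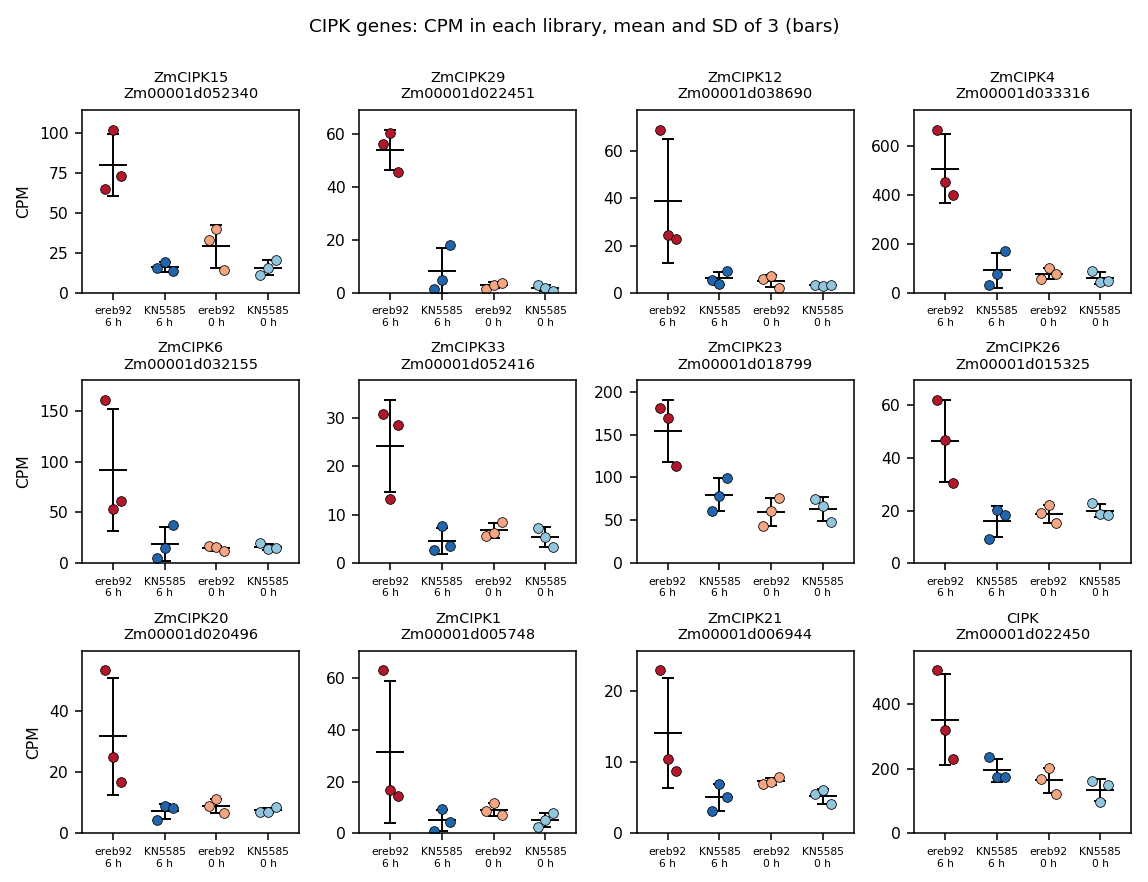
CPM (y axes, linear from 0) of 12 CIPK genes in each library (points), with the mean and SD of 3 libraries (bars) in *ereb92*_6h, KN5585_6h, *ereb92*_0h and KN5585_0h. *ZmCIPK4* reached 401 to 669 CPM in *ereb92*_6h and 29.9 to 171 CPM in the other 9 libraries, and *ZmCIPK15* 64.9 to 102 CPM in *ereb92*_6h and 11.1 to 39.6 CPM in the others.

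The difference between the genotypes at 6 HAI was smaller in calls than in fold changes. Of the 154 members tested for *ereb92*_6h vs KN5585_6h, 1 was up-regulated (0.649%, against 0.815% of the 23066 genes tested) and 1 was down-regulated (against 0.143% of all genes), by the same edgeR test and limits. The up-regulated member was *ZmCIPK15*, with 64.9, 102 and 73.2 CPM in *ereb92*_6h, against 15.7, 19.2 and 13.3 CPM in KN5585_6h. Its log2 fold change was 2.24 (SE 0.289, edgeR adjusted p = 0.0242), and the groups were far from overlapping. At 0 HAI it had 33.1, 39.6 and 14.1 CPM in *ereb92*_0h, against 11.1, 15.2 and 20.7 CPM in KN5585_0h. Without KN5585_6h replicate 2, *ereb92*_6h replicate 1 or *ereb92*_6h replicate 2 the edgeR adjusted p was 0.131, 0.0589 and 0.0848, and the log2 fold change stayed between 2.04 and 2.43. The number of up-regulated members was 1 without KN5585_6h replicate 1, 0 without KN5585_6h replicate 2 and 7 without KN5585_6h replicate 3. Of all genes, 0.583%, 0% and 2.04% were up-regulated in these fits. Without *ereb92*_6h replicate 1, 2 and 3 the number was 0, 0 and 2, beside 0.0207%, 0% and 0.603% of all genes. At an unadjusted p below 0.05 with the same fold limit, 33 members passed upwards and 1 downwards (21.4% upwards, against 8.32% of all genes, and 2.99% of all genes downwards). They were 12 of 29 CIPKs, 8 of 28 CDPKs, 8 of 32 calmodulin-like and 5 of 54 calmodulin-binding genes, and 0 of 11 CBLs. The median log2 fold change was 1.06 for CIPKs, 0.89 for calmodulin-like genes, 0.61 for CDPKs, 0.25 for calmodulin-binding genes and -0.47 for CBLs, against -0.0011 for all genes tested. DESeq2's Wald test called 21 of 175 members up-regulated, 11 of them CIPKs, against 5.10% of all genes. Without the filter on low counts edgeR called 14 of 207, against 2.12% of all genes.

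The study lists 13 CIPKs as cold-related and chose them from genes differentially expressed between these samples. Neither their direction nor how they compare with the other CIPKs is therefore independent evidence, and the values are given as a description. At 6 HAI 11 could be tested between the genotypes, and all 11 were higher in *ereb92*_6h than in KN5585_6h, with log2 fold changes of 0.87 to 3.61, and 10 passed the unadjusted limits. The 17 tested CIPKs that the study does not name ranged from -1.03 to 3.16, with a median of 0.35, and 9 were positive. Over 0 HAI in the mutant, 7 of the 11 rose, beside 0 of 18 tested CIPKs outside the study's names and 5.87% of all genes. With 18 genes, a count of 0 does not set those CIPKs apart from that share. Summed per length, the 14 named CIPKs (these 13 and *ZmCIPK1*) had 1013, 671 and 561 FPKM in *ereb92*_6h, against 82.6, 155 and 257 FPKM in KN5585_6h. The 37 others had 692, 604 and 454 FPKM in *ereb92*_6h, against 528, 412 and 490 FPKM in KN5585_6h, which overlapped.

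Several of these genes missed the adjusted threshold at 6 HAI although their groups lay apart. *ZmCIPK12* had 69.2, 24.5 and 22.9 CPM in *ereb92*_6h, against 5.33, 3.55 and 9.25 CPM in KN5585_6h (log2 fold change 2.60, SE 0.554, edgeR adjusted p = 0.0804). *ZmCIPK33* had 30.7, 13.2 and 28.5 CPM, against 2.66, 7.56 and 3.44 CPM (2.33, SE 0.521, edgeR adjusted p = 0.0908). *ZmCIPK20* had 53.4, 25.1 and 16.7 CPM, against 4.42, 9.04 and 8.37 CPM (2.04, SE 0.492, edgeR adjusted p = 0.107). In none of the 3 did the groups overlap. *ZmCIPK1* (Zm00001d005748) had 62.9, 16.7 and 14.5 CPM in *ereb92*_6h, against 1.10, 9.30 and 4.58 CPM in KN5585_6h, with a log2 fold change of 2.56 (SE 0.826, edgeR adjusted p = 0.205). *ZmCIPK21* (Zm00001d006944) had 23.0, 10.5 and 8.78 CPM, against 3.18, 6.91 and 5.11 CPM (1.39, SE 0.500, edgeR adjusted p = 0.251). For both genes *ereb92*_6h replicate 1 alone held more than the other 2 libraries of its group together.

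*ZmCIPK14*, *ZmCIPK41* and *ZmCIPK39* lie side by side on the forward strand of chromosome 10 in B73 RefGen_v4, the build of the deposited coordinates. *ZmCIPK14* (Zm00001d023353) spans 3995907 to 3997196, *ZmCIPK41* (Zm00001d023360) 4071443 to 4072735 and *ZmCIPK39* (Zm00001d023365) 4125973 to 4127271. Reads of such close relatives may be split between copies, so each value is uncertain. *ZmCIPK14* had 14.8, 6.02 and 1.60 CPM in *ereb92*_6h, against 0, 0.840 and 0.881 CPM in KN5585_6h (log2 fold change 3.61, SE 1.23, edgeR adjusted p = 0.229). *ZmCIPK41* had 3.13, 1.07 and 0.488 CPM in *ereb92*_6h and 0 counts in all 3 KN5585_6h libraries, so it was at least 7.17-fold higher when the floor was set at 3 counts per library. Without *ereb92*_6h replicate 1 that bound was 3.57-fold. It had 0.304, 0.458 and 0.324 CPM in *ereb92*_0h. The filter on low counts left it out of the edgeR test against KN5585_6h, and DESeq2's Wald test called it up-regulated there (log2 fold change 6.85, SE 1.87, adjusted p = 0.00716). *ZmCIPK39* had 0.348, 1.94 and 0 CPM in *ereb92*_6h and 0 counts in KN5585_6h, and no comparison was made. *ZmCIPK29* likewise has a CIPK neighbour: it occupies 177999485 to 178000798 on the reverse strand of chromosome 7, and Zm00001d022450 lies at 177955827 to 177957182 on the forward strand, with 42302 bases between them. The pair moved unequally, with log2 fold changes of 4.32 and 1.11 between *ereb92*_6h and *ereb92*_0h.

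The CBLs, the calcium sensors that CIPKs need, gave 0 calls among 11 tested genes in every comparison by edgeR, also at the unadjusted p with the fold limit, and 0 in the 2 comparisons with *ereb92*_6h under each alternative. Of all genes tested, 5.87% rose for *ereb92*_6h vs *ereb92*_0h, and 11.0% at the unadjusted p with the fold limit. With 11 genes, a count of 0 does not set the CBLs apart from these shares. *CBL1* (Zm00001d029976), the most abundant with 27.3 FPKM, had 90.8, 109 and 89.7 CPM in *ereb92*_6h, against 115, 117 and 145 CPM in KN5585_6h. Its log2 fold change was -0.46 (SE 0.246, edgeR adjusted p = 0.429), and the *ereb92*_6h libraries lay below those of KN5585_6h. *CBL5* (Zm00001d044389), with 12.7 FPKM, had 29.0, 19.5 and 16.3 CPM in *ereb92*_6h, against 26.6, 15.5 and 16.1 CPM in KN5585_6h, which overlapped (0.075, SE 0.343). A negative log2 fold change was found for 9 of the 11 CBLs against KN5585_6h and for 7 against *ereb92*_0h, contrasts that share the *ereb92*_6h libraries.

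The CDPKs had 7 genes that rose over 0 HAI in the mutant. The gene described as CDPK28 (Zm00001d015100), whose Arabidopsis namesake limits the stability of an immune kinase, had 59.2, 69.7 and 41.7 CPM in *ereb92*_6h, against 8.63, 7.10 and 10.2 CPM in *ereb92*_0h. The log2 fold change was 2.72 (SE 0.272, edgeR adjusted p = 0.00114), and the call held without any one library. In KN5585 it had 12.9, 15.7 and 20.6 CPM at 6 HAI, against 5.61, 7.70 and 9.11 CPM at 0 HAI. This was without overlap too, but with a log2 fold change of 1.14 (SE 0.348, edgeR adjusted p = 0.999) it did not pass. Between the genotypes at 6 HAI the change was 1.72 (SE 0.305, edgeR adjusted p = 0.0505). A CDPK7 gene (Zm00001d021835) had 63.2, 67.1 and 34.5 CPM in *ereb92*_6h, against 9.79, 8.40 and 12.4 CPM in *ereb92*_0h (2.44, SE 0.311, edgeR adjusted p = 0.00305), and this call also held without any one library. KN5585_6h had 4.48, 12.2 and 11.6 CPM of this gene, and the change between the genotypes was 2.46 (SE 0.449, edgeR adjusted p = 0.0545). The second CDPK7 gene (Zm00001d006621) had 35.9, 32.8 and 22.1 CPM, against 13.4, 9.55 and 12.3 CPM in *ereb92*_0h, an increase of 1.37 (SE 0.269, edgeR adjusted p = 0.0207).

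The CDPK1 gene (Zm00001d034372) had 39.9, 48.5 and 12.1 CPM in *ereb92*_6h, against 3.53, 2.67 and 5.97 CPM in *ereb92*_0h, and the third library was well below the other 2. It rose by 3.05 (SE 0.544, edgeR adjusted p = 0.0140). Its KN5585 libraries were at 4.22, 2.45 and 6.52 CPM at 6 HAI, against 4.09, 4.41 and 5.03 CPM at 0 HAI. CDPK10 (Zm00001d013109) was close to absent outside *ereb92*_6h: it had 14.5, 23.7 and 5.09 CPM there, against 0, 0.458 and 0.584 CPM in *ereb92*_0h and 0, 0 and 1.50 CPM in KN5585_6h. Its log2 fold change in *ereb92*_6h vs *ereb92*_0h was 5.38 (SE 0.956, edgeR adjusted p = 0.0139). The remaining pair, CDPK28 (Zm00001d005164) and CDPK2 (Zm00001d034562), rose by 1.77 and 1.06 (SE 0.348 and 0.220, edgeR adjusted p = 0.0210 and 0.0257). Their calls, that of CDPK1 and that of the second CDPK7 gene were each lost in 3 to 5 of the 6 fits without a library, and that of CDPK10 in 1. CDPK2 is the most abundant CDPK, and its 43.0, 46.6 and 46.5 CPM in *ereb92*_6h had the narrowest range of the 26 genes, with a ratio of 1.08 between the highest and the lowest. The next most abundant, Zm00001d009708, had 32.6, 36.5 and 27.4 CPM in *ereb92*_6h, against 21.2, 29.6 and 28.5 CPM in *ereb92*_0h, which overlapped.

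**Figure D4:**
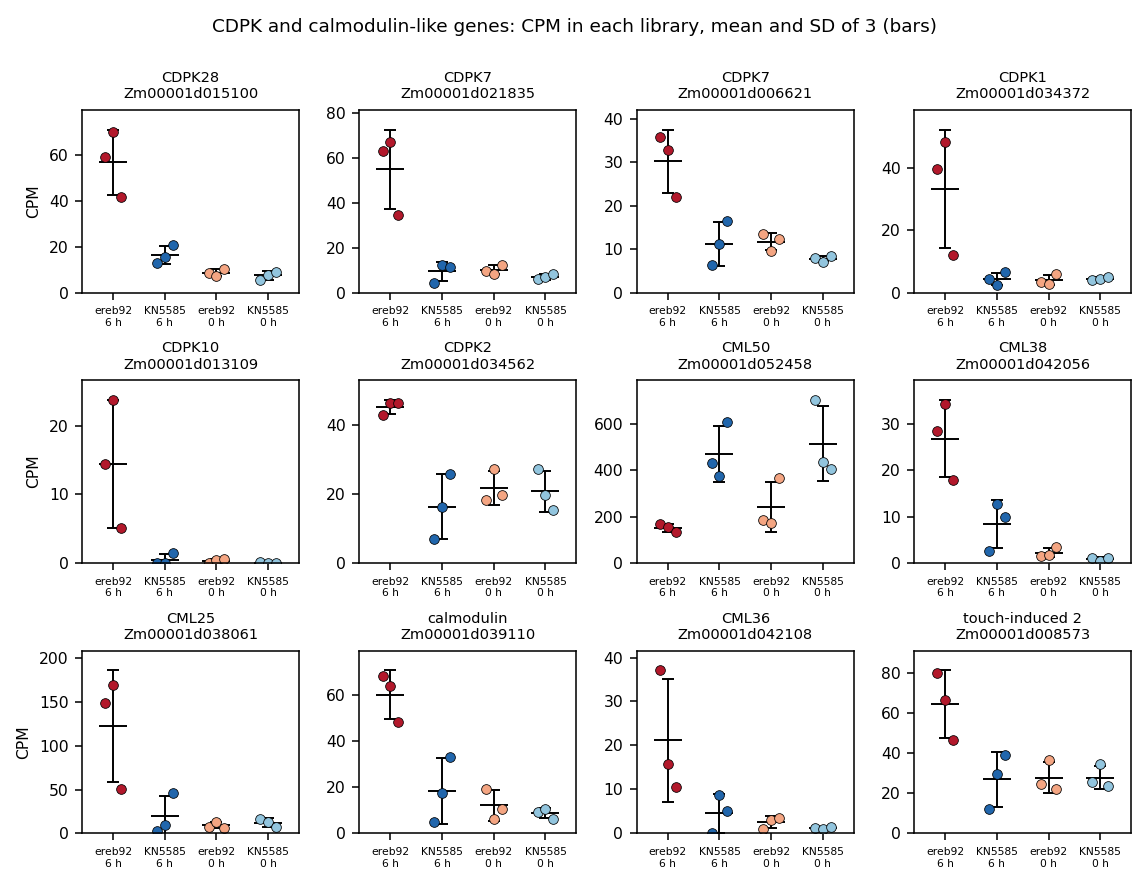
CPM (y axes, linear from 0) of 6 CDPK and 6 calmodulin-like genes in each library (points), with the mean and SD of 3 libraries (bars) in *ereb92*_6h, KN5585_6h, *ereb92*_0h and KN5585_0h. CDPK28 (Zm00001d015100) had 41.7 to 69.7 CPM in *ereb92*_6h and 5.61 to 20.6 CPM in the other 9 libraries, and CML50 was the one gene shown that was lower in *ereb92*_6h, with 134 to 166 CPM.

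The calmodulin-like genes held both the most abundant member and the 1 member that edgeR called down-regulated at 6 HAI. CML50 (Zm00001d052458, chromosome 4, 190412358 to 190415523, reverse strand) had 166, 153 and 134 CPM in *ereb92*_6h, against 432, 373 and 605 CPM in KN5585_6h. The log2 fold change was -1.72 (SE 0.304, edgeR adjusted p = 0.0494), with no overlap. At 0 HAI it had 185, 172 and 365 CPM in *ereb92*_0h, against 701, 434 and 406 CPM in KN5585_0h, also without overlap but short of the threshold (-1.10, SE 0.351, edgeR adjusted p = 0.348). The call at 6 HAI lay at the limit and was lost in each of the 6 fits without a library, where the edgeR adjusted p was 0.0523 to 0.212 and the log2 fold change -1.87 to -1.44.

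Imbibition of the mutant raised 8 calmodulin-like genes. CML25 (Zm00001d038061) had 149, 169 and 50.2 CPM in *ereb92*_6h, against 7.60, 13.0 and 6.61 CPM in *ereb92*_0h (log2 fold change 3.77, SE 0.498, edgeR adjusted p = 0.00345). KN5585_6h was spread widely for this gene, at 3.18, 9.95 and 45.6 CPM. CML38 (Zm00001d042056), whose Arabidopsis namesake is induced by low oxygen, had 28.5, 34.1 and 17.8 CPM in *ereb92*_6h, against 1.58, 1.76 and 3.44 CPM in *ereb92*_0h (3.57, SE 0.417, edgeR adjusted p = 0.00205). It was also the member with the highest wild-type increase, at 2.60, 12.7 and 9.87 CPM in KN5585_6h, against 1.04, 0.461 and 1.10 CPM in KN5585_0h. That change of 3.28 (SE 0.737, edgeR adjusted p = 0.948) did not pass, whereas DESeq2's Wald test called it (adjusted p = 0.00768). The calls of CML25 and CML38 in the mutant held without any one library.

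A calmodulin gene (Zm00001d039110) had 68.2, 64.0 and 48.2 CPM in *ereb92*_6h, against 19.5, 6.34 and 10.6 CPM in *ereb92*_0h (2.32, SE 0.394, edgeR adjusted p = 0.0113). CML36 (Zm00001d042108) had 37.1, 15.7 and 10.7 CPM, against 1.03, 3.13 and 3.44 CPM (3.07, SE 0.612, edgeR adjusted p = 0.0220, and 0.0507 with the replicate block). Both were higher in every *ereb92*_6h library. The genes described as calmodulin-like protein 2 (Zm00001d003197) and CML42 (Zm00001d029028) were low, with 3.21 to 6.68 and 2.01 to 2.79 CPM in *ereb92*_6h, against 0.259 to 0.687 and 0.130 to 0.305 CPM in *ereb92*_0h. Both rose by 3.26 (SE 0.581 and 0.656, edgeR adjusted p = 0.0140 and 0.0230), and the call of CML42 was lost in all 6 fits without a library (edgeR adjusted p = 0.0619 to 0.0965). The last 2, named after their values were seen, were CML27 (Zm00001d039944) and a touch-induced calmodulin-like gene (Zm00001d008573), with increases of 1.39 and 1.22 (SE 0.299 and 0.286, edgeR adjusted p = 0.0296 and 0.0431). The touch-induced gene had 80.0, 66.4 and 46.4 CPM in *ereb92*_6h, against 24.6, 36.5 and 22.0 CPM in *ereb92*_0h. The abundant calmodulin gene Zm00001d010650 moved the other way without passing, with 79.4, 50.8 and 66.8 CPM in *ereb92*_6h, against 140, 74.3 and 94.7 CPM in *ereb92*_0h (-0.64, SE 0.285).

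The calmodulin-binding proteins, partners rather than sensors, had 4 of 54 tested genes that rose over 0 HAI in the mutant by edgeR (7.41%, near the 5.87% of all genes), and these were named after their values were seen. CAMTA2 (Zm00001d047209) belongs to the calmodulin-binding transcription activators, a family that in Arabidopsis activates cold-response genes. It had 62.6, 44.5 and 30.4 CPM in *ereb92*_6h, against 5.47, 7.79 and 14.3 CPM in *ereb92*_0h (log2 fold change 2.33, SE 0.414, edgeR adjusted p = 0.0139). In KN5585 it had 15.5, 19.1 and 27.7 CPM at 6 HAI, against 13.7, 10.1 and 11.0 CPM at 0 HAI, without overlap but short of the threshold (0.85, SE 0.320). The others were Zm00001d047402 (2.86, SE 0.435), Zm00001d037759 (2.80, SE 0.484) and Zm00001d038062 (1.79, SE 0.267), with an edgeR adjusted p of 0.00662, 0.0120 and 0.00615. Zm00001d038062 lies 47736 bases from CML25 on chromosome 6, and both of these neighbours rose. It had 50.3, 30.2 and 36.6 CPM in *ereb92*_6h, against 11.1, 13.2 and 9.79 CPM in *ereb92*_0h. The most abundant member of the class, a BAG-domain protein gene with an IQ calmodulin-binding motif (Zm00001d049244, 162 FPKM), had 182, 194 and 163 CPM in *ereb92*_6h, against 214, 359 and 195 CPM in *ereb92*_0h, which is lower without overlap but did not pass (-0.50, SE 0.271).

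**Figure D5:**
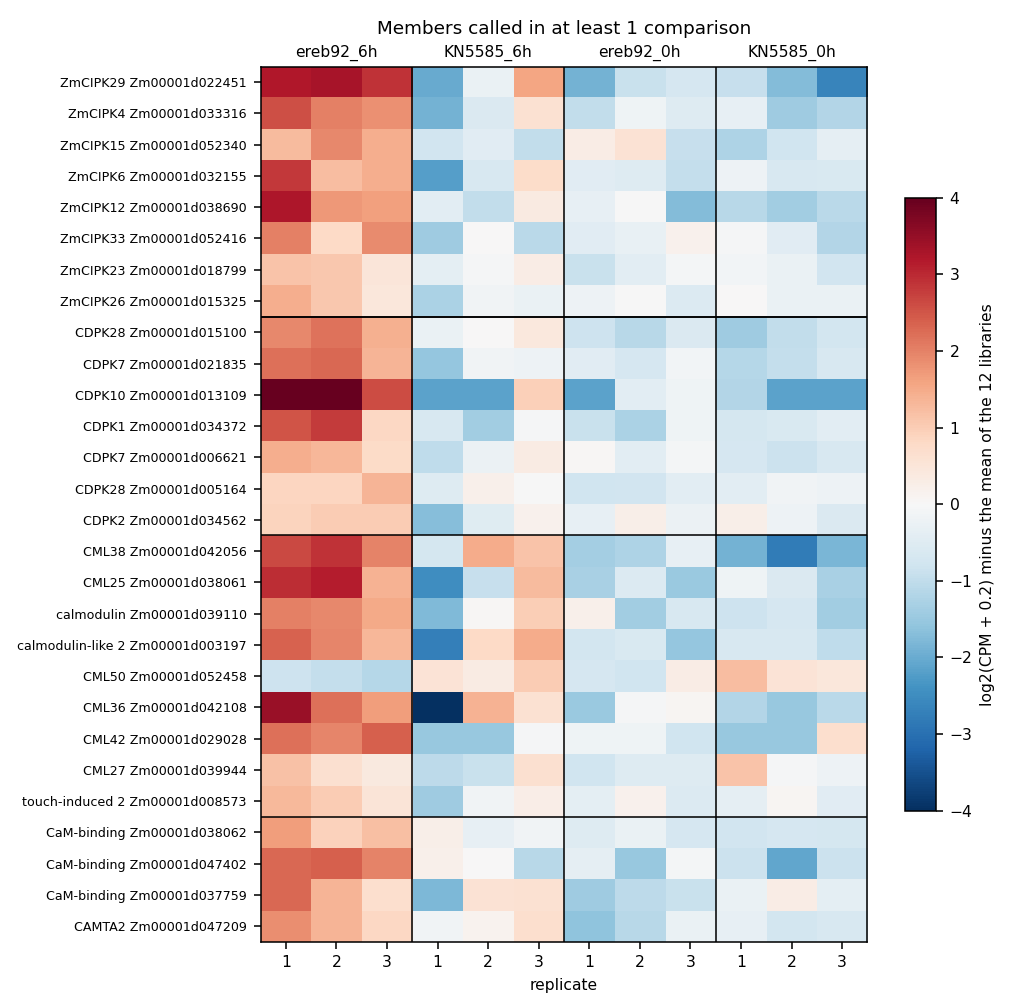
Members that passed in at least 1 comparison (y axis: CIPKs, CDPKs, calmodulin-like and calmodulin-binding genes from top to bottom) in the 12 libraries (x axis: replicates 1 to 3 of each group), coloured by log2(CPM + 0.2) minus the mean of the 12 libraries. The 3 *ereb92*_6h columns are high for every gene but CML50, and KN5585_6h replicate 1 is low where replicates 2 and 3 are near or above the mean for CML36 and CML38.

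The *ereb92*_6h libraries were not alike. Of the 26 genes up-regulated over 0 HAI, 15 were highest in replicate 1, 9 in replicate 2 and 2 in replicate 3, and the ratio of the highest to the lowest of the 3 had a median of 1.82 and reached 4.66. *ereb92*_6h replicate 1 was highest for 6 of the 7 CIPKs, 5 of the 8 calmodulin-like and 3 of the 4 calmodulin-binding genes. Replicate 2 was highest for 5 of the 7 CDPKs. All these genes were read in the same 3 libraries, and a difference between the classes was not tested. The leading library was not counted over all up-regulated genes. Of the 26 calls, 9 held in all 6 fits without a library: *ZmCIPK29*, *ZmCIPK4*, CDPK28 (Zm00001d015100), CDPK7 (Zm00001d021835), CML25, CML38 and the 3 calmodulin-binding genes other than CAMTA2.

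The change in the wild type over the same 6 hours was tested on its own 6 libraries. For KN5585_6h vs KN5585_0h 0 of 143 members tested passed in either direction (against 0.00449% and 0% of the 22282 genes tested), and at the unadjusted p 2 passed upwards and 2 downwards (1.03% and 1.23% of all genes). Those upwards were CML38 and CDPK28 (Zm00001d015100). DESeq2's Wald test called 1 of 169, CML38 (against 0.159% of all genes). Of the 26 genes above, 23 could be tested in KN5585, with log2 fold changes from -0.65 to 3.28, a median of 0.53 and 17 positive values. At 0 HAI few members differed between the genotypes: for *ereb92*_0h vs KN5585_0h 0 of 142 members passed by edgeR (against 0.168% and 0.0973% of the 22610 genes tested), and at the unadjusted p 4 passed upwards and 4 downwards (2.68% and 3.26% of all genes). DESeq2's Wald test called 1 of 161 in each direction (against 1.11% of all genes upwards and 1.08% downwards), named after their values were seen: a calmodulin-like gene (Zm00001d037477), with 2.25, 1.37 and 1.10 CPM in *ereb92*_0h, against 0, 0.0658 and 0 CPM in KN5585_0h, and a CDPK gene (Zm00001d052713), with 12.3, 9.24 and 7.91 CPM in *ereb92*_0h, against 26.9, 25.3 and 14.6 CPM in KN5585_0h. The DESeq2 adjusted p was 0.0134 and 0.0492, and that of edgeR was 0.108 and 0.252.

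A difference between *ereb92* and KN5585 in the response to imbibition was tested as the interaction of genotype and time on the 12 libraries together. It passed for 0 of 160 members by edgeR, against 0.0313% of the 25567 genes tested, so a difference in response was not shown for any member at the adjusted threshold. At the unadjusted p 25 members passed with the larger increase in *ereb92* (15.6%, against 5.86% of all genes) and 1 in the other direction (against 0.860% of all genes). The 26 up-regulated genes all had a positive interaction, from 0.29 for CML38 to 4.32 for CML42, but they had been selected on the *ereb92*_6h libraries that this term also uses. DESeq2's Wald test called 3 of 163, near the share of 1.45% of all genes. These were CDPK1 (Zm00001d034372, adjusted p = 0.00852), CDPK7 (Zm00001d021835, 0.0429) and CDPK28 (Zm00001d015100, 0.0443). Without KN5585_6h replicate 3, edgeR called 4 of 167, against 1.03% of all genes.

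Around the sensors, some genes that let calcium in or pump it out were up-regulated by edgeR. Over 0 HAI in the mutant, 8 of 66 tested channel, exchanger and pump genes rose (12.1%, beside 5.87% of all genes) and 0 fell. Over KN5585 at 6 HAI, 3 of 67 rose (4.48%, beside 0.815% of all genes) and 0 fell. These 3 calls were lost without *ereb92*_6h replicate 2, without KN5585_6h replicate 2 and with the replicate block. In each of those fits 0 of all genes tested rose. A plasma membrane calcium ATPase gene (Zm00001d014166), of the type that expels calcium when calmodulin binds, had 56.6, 133 and 22.9 CPM in *ereb92*_6h, against 1.23, 0.969 and 0.0881 CPM in KN5585_6h (log2 fold change 6.39, SE 0.909, edgeR adjusted p = 0.0288). A CSC1-like gene (Zm00001d030133), of a family with osmotically gated calcium channels, had 78.7, 37.0 and 26.8 CPM, against 3.64, 4.33 and 2.47 CPM (3.68, SE 0.471, edgeR adjusted p = 0.0242). The third was another plasma membrane calcium ATPase gene (Zm00001d028093; 2.999, SE 0.488, edgeR adjusted p = 0.0413). Of 35 tested genes of families that these kinases are known to phosphorylate, 2 rose over 0 HAI in the mutant (5.71%, near the 5.87% of all genes), both for respiratory burst oxidases (Zm00001d038762 and Zm00001d023859), the NADPH oxidases that make extracellular superoxide. A list of genes outside the CIPKs described by SNF1 or SnRK terms held kinases and their subunits, proteins that bind them, and homologs of SNF12, a subunit of the unrelated SWI/SNF complex. Of its 19 tested genes 0 passed in any comparison by edgeR, also at the unadjusted p, with a median log2 fold change of 0.019 over 0 HAI in the mutant. Over 0 HAI in the mutant 5.87% of all genes rose, and 11.0% at the unadjusted p with the fold limit. With 19 genes, a count of 0 does not set this list apart from these shares.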

How the data were processed

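Whole seeds were sequenced in 12 libraries, and all 12 were assigned to 4 groups of 3 by their labels. The authors aligned the reads to B73 RefGen_v4 with Hisat2 and counted them per gene with featureCounts, and the deposited counts are raw. The authors divided them by gene length and library size to give the deposited FPKM values. These were used for levels between genes and for sums over genes. The sums were compared between libraries without the TMM factors, which ran from 0.784 to 1.16. The deposited table also holds the authors' own DESeq2 comparisons, with mean normalized levels per group, log2 fold changes and p-values, and none of these was used. No per-sample column was left unused. How strand and multiply mapped reads were handled is not given in the sources used here, so close paralogs and antisense overlaps are uncertain.

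Counts of all 55529 genes were tested with edgeR 4.0.16 (limma 3.58.1, R 4.3.3): TMM factors, filterByExpr, glmQLFit and glmQLFTest on the 6 libraries of each comparison, or all 12 for the interaction. Benjamini-Hochberg adjustment was over all genes tested, and a call needed an adjusted p below 0.05 and a fold change of 2 or more. An SE beside an edgeR value is the absolute log2 fold change divided by the square root of the test's F statistic. The edgeR test itself gives no SE, so these values are approximate. CPM used the TMM library sizes. Zeros in a group were given as a floor of 3 counts.

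The rule for members, the groups of genes, the wider lists and the genes to name were chosen with earlier results of these data known. Named genes were all members called outside *ereb92*_6h vs *ereb92*_0h, up to 6 per group and direction with the smallest p in that one (calmodulin-binding genes excepted), the 2 most abundant members of each group and the CIPKs that the study lists. Alternatives were RLE factors, library size alone, no filter, 1 fit on all libraries, the replicate block, DESeq2 1.42.0 and each library left out in turn. The count tests were checked on simulated counts with known changes. The simulated spread between replicates was below edgeR's common dispersion for *ereb92*_6h vs KN5585_6h (0.300), KN5585_6h vs KN5585_0h (0.298) and the interaction (0.287). The check therefore does not cover these comparisons. The replicate numbers come from the labels, which do not say what they share. Deviations of same-numbered libraries from their group means correlated across genes at 0.364, 0.251 and 0.180 in *ereb92*_6h and *ereb92*_0h, so these may be paired. The main fits did not use such a pairing, which entered only through the replicate block as an alternative. In the other comparisons at least 1 pair was below 0.1. No genome or protein sequence of the deposited build was used here, and promoters were not searched.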

Additional observations from a re-analysis of the deposited data

How the results depend on the processing

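The calls rested on few libraries with a wide spread, and their number moved with the settings more than the fold changes did. In *ereb92*_6h vs KN5585_6h the number of up-regulated members was 1, and it was 3 with RLE factors, 12 with 1 fit on all samples, 7 with library size alone, 14 without the filter on low counts, 21 with DESeq2's Wald test and 0 with the replicate block. For CIPKs it was 1, and 3 with library size alone, 7 with no filter, 6 with 1 fit, 11 with DESeq2 and 0 with the block. For CDPKs it was 0, and 2 with RLE factors, 3 with library size alone and 4 without the filter, in 1 fit or by DESeq2. For calmodulin-like genes it was 0, and 1 with no filter and 4 with DESeq2. For calmodulin-binding genes it was 0, and 2 with no filter, 1 fit or DESeq2, and 1 with library size alone. The 1 down-regulated member became 0 with the block. Of all genes tested in this comparison, 0.815% rose in the main fit, 0.897% with RLE factors and 1.98% with library size alone. The share was 2.12% without the filter, 2.94% with 1 fit on all samples, 5.10% with DESeq2 and 0% with the block. With the block 0% of all genes fell as well. Deviations of same-numbered libraries of *ereb92*_6h and KN5585_6h correlated across genes at -0.086, -0.061 and -0.045, so no pairing was seen there. Whether the numbers share a batch is not given by the labels and was not tested. The median log2 fold change of all genes in this comparison was -0.0011, and it was 0.24 with no filter and 0.13 with library size alone.

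In *ereb92*_6h vs *ereb92*_0h the 26 up-regulated members became 41 with DESeq2 and 33 with the replicate block, and 19 to 36 under the other settings. Of all genes, 5.87% rose in the main fit, 7.68% with DESeq2, 6.46% with the block and 3.11% to 6.33% under the other settings. DESeq2 called 1 down-regulated, and called 12 CIPKs, 11 CDPKs and 7 calmodulin-binding genes up-regulated, against 7, 7 and 4. With 1 fit on all samples 4 CDPKs and 4 calmodulin-like genes were called, against 7 and 8. With the block, the changed calls of single named genes in this comparison were the 4 given above. DESeq2 called 1 up-regulated member in KN5585_6h vs KN5585_0h, 1 in each direction in *ereb92*_0h vs KN5585_0h and 3 in the interaction, where edgeR called 0. With the block these 3 comparisons kept a count of 0.

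With each library left out in turn, the up-regulated members numbered 0 to 7 in *ereb92*_6h vs KN5585_6h (CIPKs 0 to 3, CDPKs 0 to 2, calmodulin-like and calmodulin-binding genes 0 to 1 each; down-regulated 0 to 0). They numbered 13 to 30 in *ereb92*_6h vs *ereb92*_0h (CIPKs 3 to 9, CDPKs 3 to 8, calmodulin-like genes 2 to 8, calmodulin-binding genes 3 to 5) and 0 to 4 in the interaction. Of all genes, 0% to 2.04%, 2.97% to 6.37% and 0% to 1.03% were up-regulated in these fits, in the same order of comparisons. Log2 fold changes of named genes kept their sign except in 3 fits of *ereb92*_6h vs KN5585_6h. The calmodulin gene Zm00001d010650 was at -0.023 without KN5585_6h replicate 1 (at most 0.31, without *ereb92*_6h replicate 2), and *CBL5* (Zm00001d044389) at -0.07 without KN5585_6h replicate 2 and -0.13 without *ereb92*_6h replicate 1 (at most 0.36, without KN5585_6h replicate 1). Their values with all libraries were 0.15 and 0.075, and the cause was not tested. Genes with few counts, such as *ZmCIPK39* and *ZmCIPK41*, were left out of the edgeR test between the genotypes at 6 HAI, and DESeq2 called *ZmCIPK41* but not *ZmCIPK39*.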

Other observations

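Values of 2 further members and 1 gene of the target list are added here, chosen after they were seen. A second CML42 gene (Zm00001d007181) had 2.71, 4.39 and 0.697 CPM in *ereb92*_6h and 0 counts in all 3 KN5585_6h libraries, so it was at least 11.9-fold higher with a floor of 3 counts per library. Without *ereb92*_6h replicate 2 that bound was 7.83-fold. It was too low to pass the filter of the edgeR test there, and DESeq2's Wald test called it up-regulated (log2 fold change 7.59, SE 1.67, adjusted p = 0.000348), as it did over 0 HAI in the mutant (4.31, SE 1.09, adjusted p = 0.00159). A CIPK gene outside the study's names (Zm00001d024762) had 5.64, 4.27 and 1.67 CPM in *ereb92*_6h, against 0, 0.258 and 0.969 CPM in KN5585_6h, without overlap (log2 fold change 3.16, SE 1.24, edgeR adjusted p = 0.290). It had 1.52, 7.79 and 0.648 CPM in *ereb92*_0h, where a single library was higher than all 3 at 6 HAI. The sodium/hydrogen exchanger gene Zm00001d024832, of the target list rather than a member, rose over KN5585 at 6 HAI: *ereb92*_6h had 23.2, 34.5 and 70.5 CPM, against 4.87, 4.13 and 4.85 CPM in KN5585_6h (3.15, SE 0.467, edgeR adjusted p = 0.0297). In *ereb92*_0h it had 3.59, 49.6 and 4.41 CPM, so that 1 library at 0 HAI lay within the range of those at 6 HAI. Its call at 6 HAI was lost without *ereb92*_6h replicate 2, without KN5585_6h replicate 2 and with the replicate block. In each of those fits 0 of all genes tested rose.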
